A study of Homo sapiens with 4 samples.

Results

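Fatty acid oxidation and peroxisome genes were followed after USP22 knockdown in PLC/PRF/5, an established line of human hepatocellular carcinoma cells. The list held 40 genes chosen by name, and each was read from the mRNA row with the highest summed count. Of these genes 32 had a row among the 12153 genes of the table and 31 had enough counts to be tested. ACAD9, HADH, EHHADH, HSD17B4, PEX2, PEX6, PEX19 and PEX26 were not analysed here. There were 2 libraries of cells with lentiviral interference of USP22, a ubiquitin-specific protease of the SAGA transcriptional coactivator, and 2 control libraries labelled NC. All 4 samples were grown in high-glucose medium and spent 48 h under hypoxia (1% oxygen with 5% carbon dioxide), so no value comes from cells at normal oxygen. The labels do not say which construct the control cells carried, how many interfering sequences were used or whether replicates were separate cultures, and p-values therefore measure the spread between these libraries only.

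Fatty acids are activated to acyl-CoA esters by acyl-CoA synthetases before they can be oxidised. In mitochondria the carnitine palmitoyltransferases import long-chain acyl groups, and a cycle of dehydrogenation, hydration, dehydrogenation and thiolysis shortens them to acetyl-CoA while electrons pass through the electron transfer flavoprotein to the respiratory chain. Peroxisomes shorten very long and branched chains and the side chain of bile acid precursors, with an acyl-CoA oxidase that hands its electrons to oxygen and makes hydrogen peroxide. The PEX genes encode peroxins, which insert peroxisomal membrane proteins and import matrix enzymes. Hepatocytes use both routes, and low oxygen is known to limit mitochondrial oxidation.

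The knockdown libraries held 15027209 and 17194929 counts and the control libraries 15621574 and 16536639. USP22 had 360 and 447 CPM (counts scaled to a common library size after TMM normalization) in knockdown libraries, against 2937 and 2573 CPM in control libraries. Its log2 fold change was −2.77 ± 0.17 (SE). All 14 hepatocyte markers of a fixed list had a row, and their summed level was 45459 to 52649 CPM in knockdown libraries and 36097 to 37083 CPM in control libraries. Without APOB it was 25123 to 28829 CPM in knockdown libraries and 25457 to 27301 CPM in control libraries, and 7 of the 14 markers had a log2 fold change above 0. APOB, APOA2, FGA, FGB and FGG rose and AHSG fell. Of 18 markers of other cell types, 7 were not analysed here, and the other 11 summed to 267 to 441 CPM in knockdown libraries and 351 to 411 CPM in control libraries. Without LYZ they summed to 72.8 to 81.5 CPM in knockdown libraries and 77.3 to 86.3 CPM in control libraries, and 7 of the 9 tested markers had a log2 fold change below 0. The endothelial markers of the list did not move together. PECAM1 had 28.2 and 22.3 CPM in knockdown libraries, against 14.8 and 10.1 CPM in control libraries, and rose (adjusted p = 0.0185). VWF had 0 and 2 counts in knockdown libraries, against 7 and 9 counts in control libraries, and was not tested. CDH5 had 20 and 15 counts in knockdown libraries, against 42 and 16 counts in control libraries. Its groups overlapped, and its log2 fold change was −0.73 ± 0.67 (SE). The erythroid marker HBB had 0 and 1 counts in knockdown libraries, against 45 and 40 counts in control libraries, and fell (adjusted p = 0.0011). HBB was tested only because its control libraries reached the minimum of the filter on low counts. The part of other cell types in the results was not tested. Each row belongs to 1 RefSeq mRNA accession, and rows of members with several accessions had lower totals by the median. Among the members the median row total was 7109 counts for the 8 genes with 1 accession, 862.5 for the 10 genes with 2 and 210.5 for the 14 genes with 3 or more, though the row of CPT1A, with 10 accessions, held 20881 counts. A low row of a gene with several accessions therefore says little on the level of the gene.

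By edgeR's quasi-likelihood test, with a Benjamini-Hochberg adjusted p threshold of 0.05, 4 of the 31 tested members rose, 1 fell and 26 did not pass. This is 16.1% of the members, while 18.7% of all 12337 tested transcripts passed (8.49% higher and 10.2% lower). When each of 10779 genes was represented by its highest row, 20.1% passed, 9.08% higher and 11.1% lower. The members' share is thus close to that of all genes. ACOX2, ETFB, PEX14 and ACSL4 rose and PEX3 fell. ACSL4 and ACSL1 passed the filter on low counts through 1 group only, ACSL4 through the knockdown libraries and ACSL1 through the control libraries. Apart from ACSL4, of the activation role, the members that rose were 1 from mitochondrial oxidation, 1 from peroxisomal oxidation and 1 from the PEX genes. Bulk libraries cannot tell apart a change in RNA per cell from a change in the make-up of the culture.

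**Figure D1:**
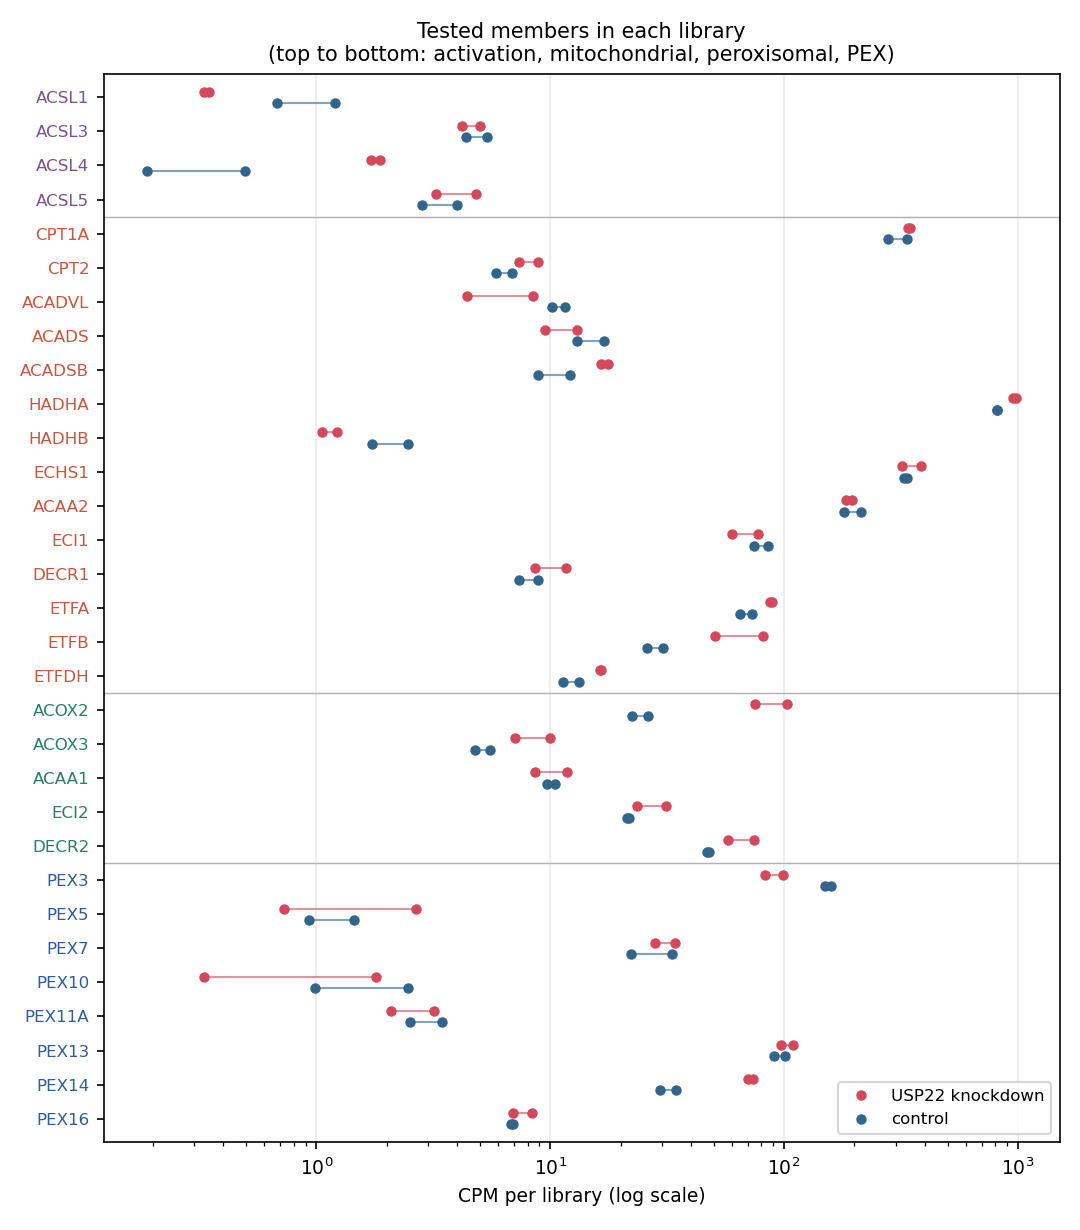
CPM of the 31 tested members in every library on a log scale, with red points for the 2 USP22 knockdown libraries and blue points for the 2 control libraries, and a line joining the libraries of a group. The knockdown points of ACOX2, ETFB, PEX14 and ACSL4 lie to the right of both control points, those of PEX3 lie to the left, and HADHA is the highest row at 955 to 984 CPM in knockdown and 810 to 816 CPM in control libraries.

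Peroxisomal oxidation was the role in which every tested member had a fold change above 0. The median of these 5 log2 fold changes was 0.48, and 1 gene passed (20% of the role, while 20.1% of all genes passed). ACOX2, the acyl-CoA oxidase that acts on branched-chain fatty acids and bile acid intermediates, had 75.2 and 103 CPM in knockdown libraries, against 22.4 and 26.2 CPM in control libraries. Both knockdown libraries were above both control libraries by a wide margin, and the knockdown libraries differed more between themselves than the control libraries did. ACOX2 rose 3.67-fold (log2 fold change 1.88 ± 0.22 SE, adjusted p = 0.000101), with a 95% interval of 2.65 to 5.08. It has a single RefSeq mRNA accession (NM_003500.3), so the row stands for the gene as annotated.

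The other peroxisomal enzymes did not pass. DECR2, the peroxisomal dienoyl-CoA reductase, had 57.5 and 74.5 CPM in knockdown libraries, against 47.9 and 46.9 CPM in control libraries (log2 fold change 0.48 ± 0.20, adjusted p = 0.117). Its groups did not overlap, and the 95% interval of its fold change ran from 1.03 to 1.87. ECI2, an enoyl-CoA isomerase found in peroxisomes and mitochondria, had 23.5 and 31.2 CPM in knockdown libraries, against 21.4 and 21.8 CPM in control libraries (0.34 ± 0.24, adjusted p = 0.35). ACOX3, another acyl-CoA oxidase of branched chains, had 7.07 and 10.02 CPM in knockdown libraries, against 5.56 and 4.76 CPM in control libraries (0.73 ± 0.33, adjusted p = 0.153). ACAA1, the peroxisomal thiolase, had 8.59 and 11.8 CPM in knockdown libraries, against 10.5 and 9.71 CPM in control libraries, and its groups overlapped (0.01 ± 0.29, adjusted p = 0.984). The other 4 of the 5 genes had both knockdown libraries above both control libraries, as had 29.8% of all genes. In 5 of 5 of these genes knockdown replicate 2 was above knockdown replicate 1. Without knockdown replicate 2 the median of the role was 0.29 and without knockdown replicate 1 it was 0.69. DECR2 shares 29.7% of its transcript with exons of NME4 on the same strand in GENCODE 29, ECI2 21.0% with C6orf201 and ACAA1 23.1% with DLEC1, both on the opposite strand. Reads from bases shared on the same strand cannot be told apart by strand. Those from bases shared on opposite strands cannot be told apart by strand here either, as the library kit does not mark strand. The part of the overlapping genes in these values was not tested.

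**Figure D2:**
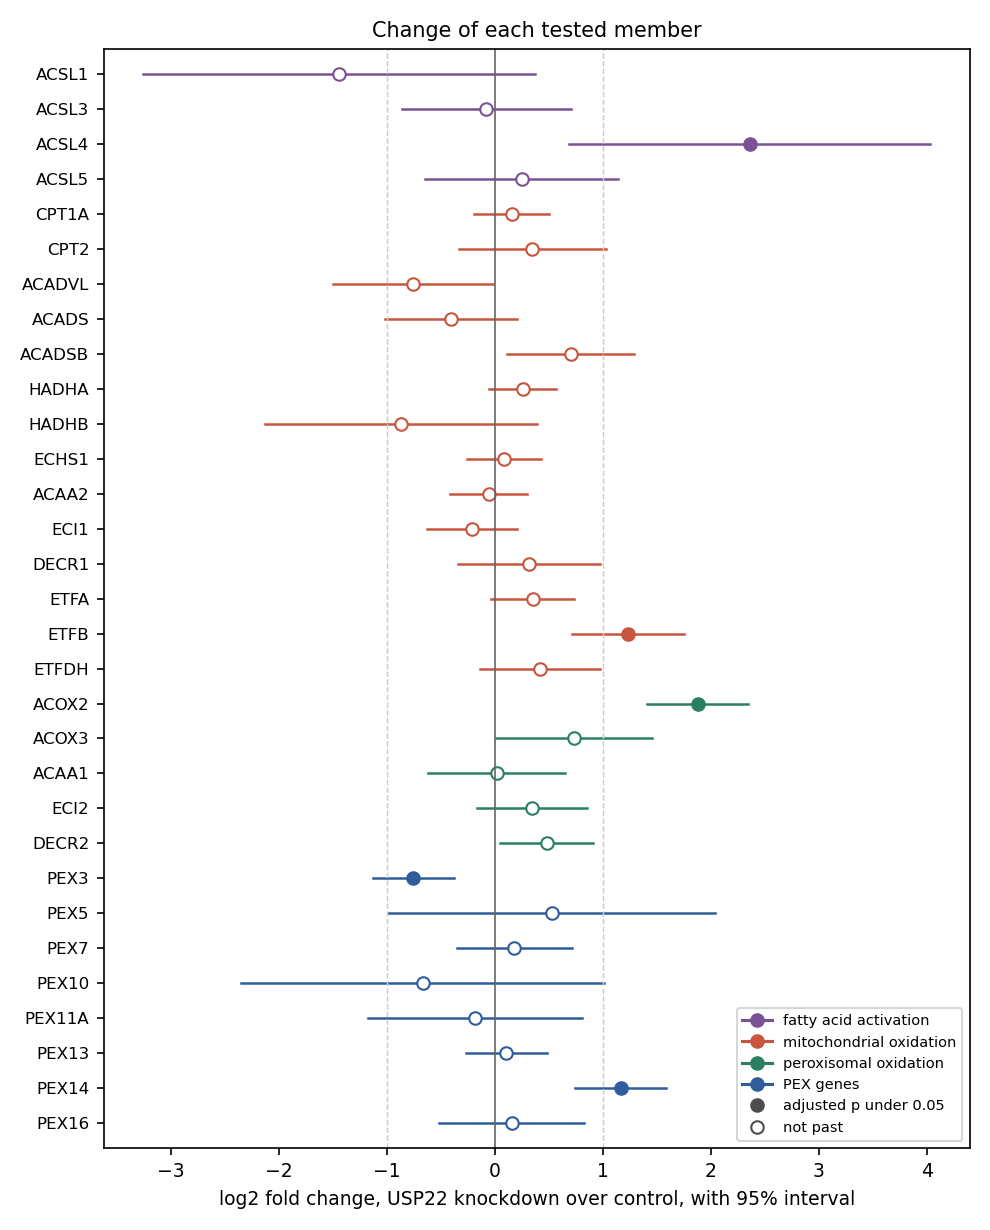
Log2 fold change of USP22 knockdown over control for the 31 tested members, coloured by role, with 95% intervals as lines; filled points passed an adjusted p of 0.05 and dashed lines mark a 2-fold change. All 5 peroxisomal oxidation genes lie above 0, the well-counted mitochondrial genes HADHA, ECHS1, ACAA2 and CPT1A lie close to 0 with narrow intervals, and ACSL4 has the widest interval of the members that passed.

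In mitochondrial oxidation 1 of the 14 tested genes passed (7.14% of the role, while 20.1% of all genes passed). That gene was ETFB, the beta subunit of the electron transfer flavoprotein, which takes electrons from the acyl-CoA dehydrogenases. ETFB had 50.4 and 81.6 CPM in knockdown libraries, against 25.9 and 30.4 CPM in control libraries, and it rose 2.35-fold (log2 fold change 1.23 ± 0.24, adjusted p = 0.00349). The groups did not overlap, although the knockdown libraries stood apart from each other. ETFA, the alpha subunit that pairs with ETFB, had 88.6 and 87.0 CPM in knockdown libraries, against 64.9 and 72.8 CPM in control libraries (0.35 ± 0.18, adjusted p = 0.197). ETFDH, the ubiquinone oxidoreductase that receives the electrons, had 16.3 and 16.5 CPM in knockdown libraries, against 13.3 and 11.4 CPM in control libraries (0.41 ± 0.26, adjusted p = 0.297). All 3 genes of this electron path had both knockdown libraries above both control libraries, as had 29.8% of all genes, and ETFA and ETFDH did not pass. Whether their fold changes differ from each other was not tested.

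ETFB has 2 RefSeq mRNA accessions, and the rise was seen in the row of NM_001985.2. The other row, NM_001014763.1, had 37 and 61 counts in knockdown libraries, against 55 and 72 counts in control libraries (log2 fold change −0.40, adjusted p = 0.563). A test of the rows of a gene against each other, over the 1334 genes with at least 2 tested rows, gave an adjusted p = 0.109 for ETFB (diffSpliceDGE in edgeR, unadjusted p = 0.00385), and 1.72% of those genes passed. This test was added after the values had been seen. With both rows summed, ETFB still rose (log2 fold change 1.12, adjusted p = 0.00477). In GENCODE 29 the NM_001985.2 transcript shares 37.4% of its bases with AC008750.8 on the same strand and 23.8% with the antisense gene AC008750.4, and their part in the rise was not tested.

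The sequences before the starts of ETFB and ETFA are shown because both genes encode subunits of 1 flavoprotein and ETFB passed while ETFA did not, and that of PEX3 because it was the member that fell. Each holds the 250 bases before a RefSeq start (GRCh38.p14), on the strand of the gene. Capitals mark CCAAT, the box bound by NF-Y, and GGGCGG, the GC box bound by SP1, each searched on both strands. The RefSeq start lies 30 bases from the start of the measured transcript in GENCODE 29 for ETFB and 175 bases from it for PEX3, and at the same base for ETFA.
ETFB, chr19:51366389-51366638, minus strand: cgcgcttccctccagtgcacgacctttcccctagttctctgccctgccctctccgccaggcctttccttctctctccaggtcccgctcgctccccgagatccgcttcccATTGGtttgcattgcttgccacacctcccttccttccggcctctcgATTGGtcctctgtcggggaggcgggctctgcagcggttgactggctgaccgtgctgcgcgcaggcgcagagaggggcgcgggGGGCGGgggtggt
ETFA, chr15:76311470-76311719, minus strand: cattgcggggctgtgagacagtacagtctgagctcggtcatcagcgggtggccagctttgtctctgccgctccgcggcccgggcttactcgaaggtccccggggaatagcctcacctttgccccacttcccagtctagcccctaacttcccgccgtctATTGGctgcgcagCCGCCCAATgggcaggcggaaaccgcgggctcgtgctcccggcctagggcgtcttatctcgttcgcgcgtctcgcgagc
PEX3, chr6:143450555-143450804, plus strand: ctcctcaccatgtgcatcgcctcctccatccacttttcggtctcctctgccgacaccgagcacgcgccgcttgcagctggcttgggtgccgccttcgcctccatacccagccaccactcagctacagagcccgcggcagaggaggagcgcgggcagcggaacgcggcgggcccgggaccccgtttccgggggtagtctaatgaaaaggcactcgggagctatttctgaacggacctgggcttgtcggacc

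The ETFB and ETFA stretches each held 2 CCAAT matches and 1 GGGCGG match, and in ETFA a CCAAT match and the GGGCGG match share 2 bases. The first bases of the CCAAT matches lay 141 and 95 bases before the ETFB start and 92 and 75 bases before the ETFA start. The PEX3 stretch held neither motif. Over 300-base windows that also take in the first bases after the start, CCAAT was in 21.3% of the 47 windows of 32 member genes and in 34.6% of all 35116 windows. These 32 genes are not the 32 with a row. They include ACAD9, HADH, HSD17B4, PEX6, PEX19 and PEX26, which were not analysed here. No window was found for ACOX2, PEX14, ACAA1, DECR1, DECR2 or ETFDH. GGGCGG was in 72.3% of member windows and 45.0% of all windows. ACGTG, the letters at the core of sites bound by hypoxia-inducible factors, was in 12.8% of member windows and 21.4% of all windows. AGGTCA, the hexamer of sites bound by nuclear receptors such as PPARA, was in 2.13% of member windows and 13.8% of all windows. The stretches of ETFB, ETFA and PEX3 held neither ACGTG nor AGGTCA.

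The well-counted enzymes of the mitochondrial cycle did not pass, and their intervals were narrow. HADHA, the alpha subunit of the trifunctional protein, which hydrates and dehydrogenates long-chain acyl-CoA, had 984 and 955 CPM in knockdown libraries, against 816 and 810 CPM in control libraries (log2 fold change 0.25 ± 0.15, adjusted p = 0.252). Its groups did not overlap, and the 95% interval of the fold change ran from 0.960 to 1.48. CPT1A, the liver form of the enzyme that commits long-chain fatty acids to mitochondrial import, had 344 and 339 CPM in knockdown libraries, against 280 and 335 CPM in control libraries (0.15 ± 0.16, adjusted p = 0.564). ECHS1, the short-chain enoyl-CoA hydratase, had 319 and 383 CPM in knockdown libraries, against 327 and 336 CPM in control libraries (0.08 ± 0.16, adjusted p = 0.781). ACAA2, the mitochondrial thiolase, had 184 and 195 CPM in knockdown libraries, against 214 and 180 CPM in control libraries (−0.06 ± 0.17, adjusted p = 0.857). For CPT1A, ECHS1 and ACAA2 the 95% intervals of the fold change ran from 0.874 to 1.41, from 0.833 to 1.35 and from 0.750 to 1.23. A change of 2-fold in either direction lay outside all of these intervals. ECI1, the mitochondrial enoyl-CoA isomerase, had 60.0 and 77.7 CPM in knockdown libraries, against 85.4 and 74.3 CPM in control libraries (−0.21 ± 0.19, adjusted p = 0.50).

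The acyl-CoA dehydrogenases, which take the first step of the cycle for chains of different length, had fold changes of both signs, and none of them passed. The ACADVL row, for very long chains, had 4.43 and 8.44 CPM in knockdown libraries, against 10.2 and 11.6 CPM in control libraries (log2 fold change −0.76 ± 0.34, adjusted p = 0.150). The ACADS row, for short chains, had 13.0 and 9.55 CPM in knockdown libraries, against 16.9 and 13.05 CPM in control libraries (−0.41 ± 0.28, adjusted p = 0.354). The ACADSB row, for short branched chains derived from isoleucine, had 17.7 and 16.4 CPM in knockdown libraries, against 8.84 and 12.1 CPM in control libraries (0.70 ± 0.27, adjusted p = 0.0948). In each of these 3 genes the groups did not overlap, with ACADSB higher and both ACADVL and ACADS lower in knockdown libraries. Over all genes 61.2% had groups that did not overlap, 29.8% higher and 31.4% lower. The call of ACADVL turned on 1 library. It passed when knockdown replicate 2 was left out (−1.29, adjusted p = 0.0178), and when knockdown replicate 1 was left out it stood at −0.33 (adjusted p = 0.628). ACADM, for medium chains, had 12 and 0 counts in knockdown libraries, against 0 and 4 counts in control libraries, and could not be tested. CPT2, the inner-membrane carnitine palmitoyltransferase (0.35 ± 0.32, adjusted p = 0.501), and DECR1, the mitochondrial dienoyl-CoA reductase (0.32 ± 0.31, adjusted p = 0.527), did not pass.

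HADHB encodes the beta subunit that forms the trifunctional protein with HADHA, and RefSeq starts of the genes lie 307 bases apart on opposite strands. The measured HADHB row, NM_001281513.1, had 16 and 21 counts in knockdown libraries, against 39 and 28 counts in control libraries (log2 fold change −0.87 ± 0.58, adjusted p = 0.337). HADHB has 3 RefSeq mRNA accessions, and in GENCODE 29 the transcript of this row starts 16082 bases away from the shared start region. HADHA, with 1 accession, was above control and this HADHB row was below it, but the row says little on HADHB as a gene.

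Of 8 tested PEX genes 1 rose, 1 fell and 6 did not pass. The genes that passed are 25% of the 8, while 20.1% of all genes passed, 9.08% higher and 11.1% lower. The median log2 fold change of the PEX genes was 0.13. PEX14, the docking protein of the peroxisomal membrane that receives the import receptor with its cargo, had 70.3 and 73.4 CPM in knockdown libraries, against 34.5 and 29.6 CPM in control libraries. The libraries of each group lay close together and far from the other group, and PEX14 rose 2.24-fold (log2 fold change 1.16 ± 0.20, adjusted p = 0.00133). PEX3, the membrane anchor that takes up membrane proteins delivered by their chaperone, had 99.4 and 82.7 CPM in knockdown libraries, against 159 and 149 CPM in control libraries. PEX3 fell by 0.76 on the log2 scale (SE 0.17, adjusted p = 0.00872), which is a fold of 0.591. Without control replicate 1 its log2 fold change was −0.71 and did not pass (adjusted p = 0.0634). Its adjusted p lay between 7.36e-06 and 0.0634 in the 9 alternatives. PEX14 and PEX3 each have 1 RefSeq mRNA accession.

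PEX13, which forms the docking complex with PEX14, had 109 and 96.7 CPM in knockdown libraries, against 101 and 90.4 CPM in control libraries (log2 fold change 0.10 ± 0.17, adjusted p = 0.738). Its 95% interval ran from a fold of 0.828 to 1.40, below the 2.24-fold estimate of PEX14. The difference between PEX14 and PEX13 was not tested. PEX7, the import receptor for enzymes with an amino-terminal signal such as ACAA1, had 34.3 and 28.2 CPM in knockdown libraries, against 33.1 and 22.1 CPM in control libraries (0.18 ± 0.25, adjusted p = 0.677). PEX16, a membrane peroxin that works with PEX3, had 6.94 and 8.33 CPM in knockdown libraries, against 6.82 and 6.93 CPM in control libraries, and did not pass (adjusted p = 0.791). PEX11A, which takes part in peroxisome division, PEX5, the import receptor for most matrix enzymes, and PEX10, a ubiquitin ligase of receptor recycling, were measured on rows of genes with 3 or more accessions. Their rows lay between 5 and 56 counts in every library, and none of them passed.

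**Figure D3:**
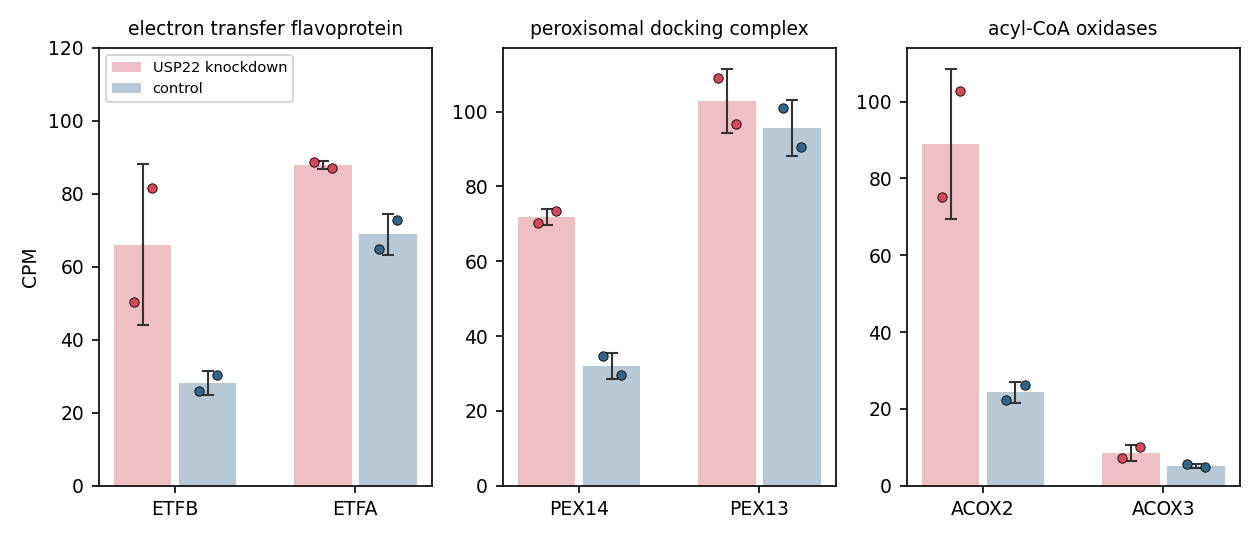
CPM of 3 pairs of genes with related roles, with red bars for USP22 knockdown and blue bars for control; bars are means, error bars are SD of 2 libraries and points are libraries. ETFB, PEX14 and ACOX2 have red bars at more than 2 times the height of the blue ones, at 66.0, 71.8 and 89.0 CPM in knockdown against 28.1, 32.0 and 24.3 CPM in control, while ETFA, PEX13 and ACOX3 did not pass.

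The acyl-CoA synthetases, which activate long-chain fatty acids, were all measured on low rows, each from a gene with 4 or more RefSeq mRNA accessions. The ACSL4 row, of an enzyme that prefers arachidonic acid, had 26 and 32 counts in knockdown libraries, against 3 and 8 counts in control libraries. Neither control library reached the filter's minimum of 0.622 CPM, so the row was tested only because its knockdown libraries were high. It lay at the edge of the threshold (log2 fold change 2.36 ± 0.78, adjusted p = 0.0498). ACSL4 did not pass in 5 of 9 alternatives, over a range of adjusted p from 0.0264 to 0.269. These were DESeq2 (adjusted p = 0.0775), no filter on low counts (adjusted p = 0.055) and the fits that left out control replicate 1 (adjusted p = 0.175), knockdown replicate 1 (adjusted p = 0.167) or knockdown replicate 2 (adjusted p = 0.269). Without control replicate 2 its log2 fold change was 3.21. ACSL3 had 76 and 72 counts in knockdown libraries, against 69 and 87 counts in control libraries (−0.08 ± 0.36, adjusted p = 0.910), and ACSL5 had 49 and 83 counts in knockdown libraries, against 63 and 46 counts in control libraries (0.25 ± 0.41, adjusted p = 0.741). ACSL1 had 5 and 6 counts in knockdown libraries, against 19 and 11 counts in control libraries, and did not pass (−1.44 ± 0.84, adjusted p = 0.262).

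The roles can be set side by side by their medians. The median log2 fold change was 0.48 for peroxisomal oxidation, 0.20 for mitochondrial oxidation, 0.13 for the PEX genes and 0.08 for activation, against −0.0045 over the highest rows of all 10779 tested genes. Fold changes above 0 were found in 5 of 5, 9 of 14, 5 of 8 and 2 of 4 of their genes, and in 49.8% of all genes. Over the 4 pairings of a knockdown with a control library, the median difference in log2(CPM + 1) was 0.26 to 0.66 for peroxisomal oxidation, 0.06 to 0.27 for mitochondrial oxidation and −0.12 to 0.28 for the PEX genes. The ranges of peroxisomal and mitochondrial oxidation overlap narrowly, and no test of the difference between roles was made. Across all members 14 of 31 (45.2%) had both knockdown libraries above both control libraries and 5 (16.1%) had both below, while 29.8% and 31.4% of all genes did. Summed over its rows, peroxisomal oxidation had 172 and 230.3 CPM in knockdown libraries, against 108 and 109 CPM in control libraries. Most of this difference was ACOX2, and without it the sums were 96.7 and 127 CPM in knockdown libraries, against 85.4 and 83.2 CPM in control libraries. Mitochondrial oxidation summed to 2102 and 2189 CPM in knockdown libraries and to 1878 and 1905 CPM in control libraries.

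Levels were compared between genes only per length and only for the 8 members with 1 RefSeq mRNA accession. In knockdown cells HADHA was the highest at 319 ± 6.74 CPM per kilobase (SD, n = 2), followed by ECHS1 at 217 ± 28.0 and ACAA2 at 56.5 ± 2.36. PEX3 followed at 46.2 ± 5.99, DECR2 at 40.9 ± 7.43, ACOX2 at 36.7 ± 8.06 and PEX14 at 36.2 ± 1.10 CPM per kilobase, and PEX13 was lowest at 23.0 ± 1.94. Among these, DECR2 did not differ from PEX3, ACOX2 from DECR2 or PEX14 from ACOX2 by more than the sum of their SDs. In control cells HADHA had 268 ± 1.32, ECHS1 205 ± 3.84, PEX3 78.2 ± 3.42 and ACAA2 58.8 ± 7.22 CPM per kilobase. DECR2 had 29.4 ± 0.432, PEX13 21.4 ± 1.66 and PEX14 16.1 ± 1.77, and ACOX2 was the lowest at 9.998 ± 1.11 CPM per kilobase. ACOX2 was thus last of the 8 in control cells and above PEX14 and PEX13 by its mean in knockdown cells.

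The authors' deposited table gives a q-value under 0.05 for 8 of the 32 members with a row. The share of all genes under that q-value is not reported here, so the count cannot be set against the whole table. The 8 members were the 5 called here and also HADHA (q = 0.0438), ACADSB (q = 0.0359) and DECR2 (q = 0.0361). In the authors' deposited table the log2 fold changes were 1.90 for ACOX2, 1.25 for ETFB, 1.18 for PEX14 and −0.74 for PEX3.

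Other genes of the pathway were read from fixed lists in the same way. Of 26 tested peroxisomal enzymes and transporters outside the members, 5 rose and none fell, by edgeR's test and by DESeq2 alike, and 2 of those that did not pass had an unadjusted p under 0.05. The 5 genes are 19.2% of the list, while 20.1% of all genes passed and 9.08% rose. The list's median log2 fold change was 0.48, and 23 of 26 lay above 0, as did 49.8% of all genes. When control replicate 1 was left out 2 rose, and when knockdown replicate 2 was left out 4 rose and 1 fell. The SLC27A2 row, of a very long-chain acyl-CoA synthetase, had 4.10 and 5.77 CPM in knockdown libraries, against 1.58 and 1.98 CPM in control libraries (log2 fold change 1.47 ± 0.43, adjusted p = 0.0308). SLC27A2 did not pass when control replicate 1 (adjusted p = 0.0849) or knockdown replicate 2 (adjusted p = 0.213) was left out, and the lowest adjusted p of the alternatives was 0.0077. CAT, the catalase that removes the hydrogen peroxide made by acyl-CoA oxidases, had 202 and 207 CPM in knockdown libraries, against 112 and 101 CPM in control libraries (0.95 ± 0.16, adjusted p = 0.00167). CAT passed in all 9 alternatives, and its libraries lay close together within each group.

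The remaining 3 of these peroxisomal genes that rose were named after their values had been seen. PECR, a peroxisomal enoyl-CoA reductase, had 176 and 193 CPM in knockdown libraries, against 101 and 98.1 CPM in control libraries (log2 fold change 0.89 ± 0.17, adjusted p = 0.00253). PIPOX, which oxidises pipecolic acid and sarcosine, had 36.2 and 42.5 CPM in knockdown libraries, against 19.8 and 21.3 CPM in control libraries (0.93 ± 0.22, adjusted p = 0.0100). AGPS, an enzyme of ether lipid synthesis, had 425 and 368 CPM in knockdown libraries, against 271 and 291 CPM in control libraries (0.50 ± 0.16, adjusted p = 0.0446). For each of the 3 both knockdown libraries were above both control libraries. PIPOX did not pass without control replicate 1 (adjusted p = 0.0650, range 0.000122 to 0.0650). AGPS did not pass without control replicate 1, control replicate 2 or knockdown replicate 1 (range 0.00188 to 0.271).

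Among 15 other genes of mitochondrial oxidation and acyl-CoA handling 1 rose and 2 fell (3 fell in DESeq2). By edgeR's test this is 20% of the list, while 20.1% of all genes passed. The list's median log2 fold change was −0.01. HSD17B10, a mitochondrial dehydrogenase of short-chain and branched substrates, had 72.7 and 93.1 CPM in knockdown libraries, against 45.6 and 42.4 CPM in control libraries (0.91 ± 0.20, adjusted p = 0.00608). The ACACB row, of the carboxylase whose product malonyl-CoA inhibits CPT1A, had 170 and 131 CPM in knockdown libraries, against 290 and 329 CPM in control libraries, and fell by 1.04 on the log2 scale (SE 0.18, adjusted p = 0.00155). ACAD8, a dehydrogenase of valine breakdown, had 101 and 97.3 CPM in knockdown libraries, against 147 and 145 CPM in control libraries. ACAD8 fell by 0.56 (adjusted p = 0.0306) but did not pass without control replicate 1, control replicate 2 or knockdown replicate 2 (range 0.00143 to 0.182).

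**Figure D4:**
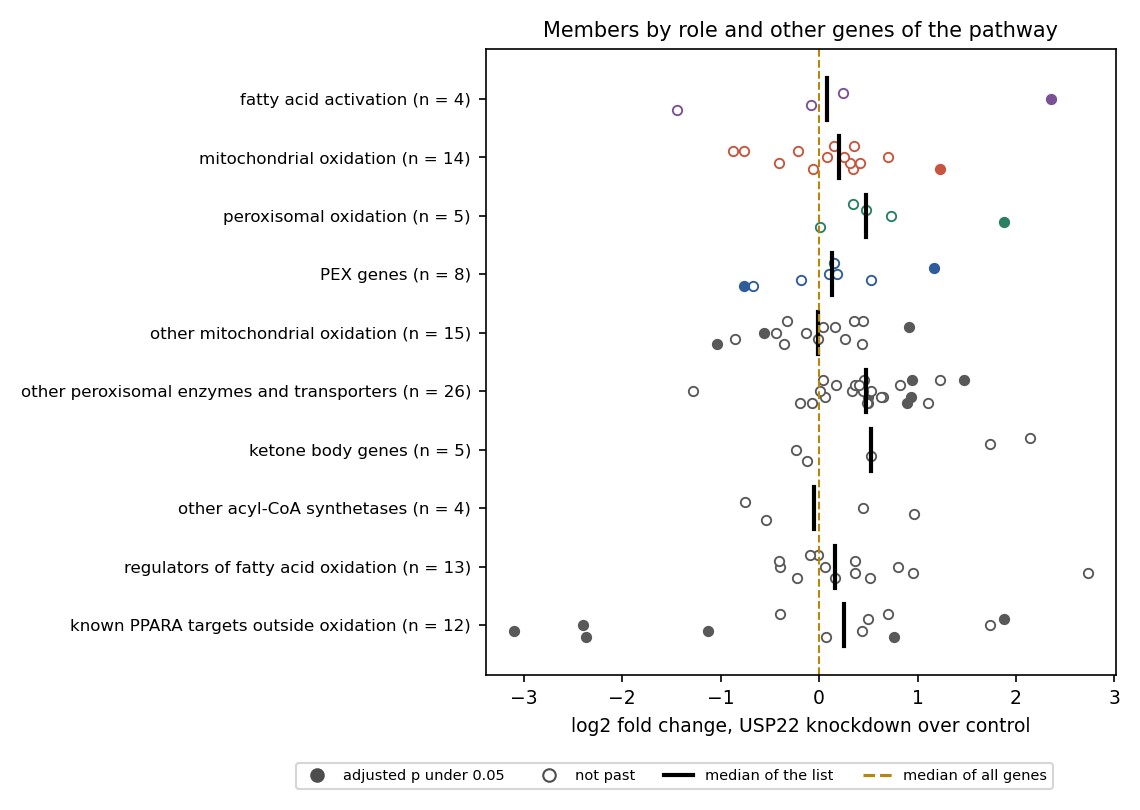
Log2 fold change of USP22 knockdown over control for the tested genes of each list, with the 4 roles of the members on top and other genes of the pathway in grey below; filled points passed an adjusted p of 0.05, black bars are medians and the dashed line is the median of all genes. The medians of peroxisomal oxidation and of other peroxisomal enzymes both lie at 0.48, and 4 filled points lie left of 0 among known PPARA targets.

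Genes known as targets of PPARA, the nuclear receptor that drives fatty acid oxidation in liver, moved in both directions outside the oxidation enzymes. Of 12 tested targets, 2 rose (1 in DESeq2) and 4 fell, while 9.08% of all genes rose and 11.1% fell. Without control replicate 2 the list had 3 that rose and 2 that fell, without control replicate 1 it had 1 that rose, and without knockdown replicate 1 it had 4 that rose. Some genes of this list also stand in other lists. PDK4, which inhibits pyruvate dehydrogenase, had 98.1 and 40.3 CPM in knockdown libraries, against 27.3 and 10.2 CPM in control libraries (log2 fold change 1.88 ± 0.42, adjusted p = 0.00769). Its libraries were far apart within each group. Without control replicate 1 the log2 fold change was 2.76 and without knockdown replicate 1 it was 1.14, and PDK4 did not pass in DESeq2 (adjusted p = 0.137, range 7.85e-22 to 0.137). FABP1, the liver fatty acid binding protein, had 827 and 969 CPM in knockdown libraries, against 417 and 640 CPM in control libraries (0.76 ± 0.20, adjusted p = 0.0154), and did not pass without control replicate 1 (adjusted p = 0.191, range 1.75e-08 to 0.191).

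The PPARA targets with the lowest fold changes were G0S2 and ANGPTL4. ANGPTL4, a secreted inhibitor of lipoprotein lipase that hypoxia is also known to induce, had 43.9 and 21.3 CPM in knockdown libraries, against 163 and 181 CPM in control libraries, and fell by 2.40 on the log2 scale (SE 0.27, adjusted p = 9.32e-05). G0S2, an inhibitor of the lipase ATGL, had 1 and 9 counts in knockdown libraries, against 31 and 54 counts in control libraries (−3.10 ± 0.81, adjusted p = 0.0170). It passed the filter on low counts through the control libraries only. For G0S2 the log2 fold change was −5.16 without knockdown replicate 2 and −2.28 without knockdown replicate 1, and it did not pass without control replicate 2 (adjusted p = 0.0571, range 0.000373 to 0.0571). TXNIP (fell by 2.37, adjusted p = 0.000373) and VNN1 (fell by 1.13, adjusted p = 0.0273) were named after their values had been seen, and VNN1 did not pass without control replicate 2 (adjusted p = 0.106) or knockdown replicate 2 (adjusted p = 0.135).

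In 3 further lists no gene passed by edgeR's quasi-likelihood test, by which 20.1% of all genes passed, and none did by DESeq2. Of 13 regulators of fatty acid oxidation 1 had an unadjusted p under 0.05, of 5 ketone body genes 2 did and of 4 other acyl-CoA synthetases 3 did. The share of all genes with an unadjusted p under 0.05 is not reported here, so these counts cannot be set against it. In these lists, the regulator HNF4A and the ketone body gene OXCT1 passed the filter on low counts through the knockdown libraries only. With control replicate 2 left out 2 ketone body genes and 1 regulator rose, and with knockdown replicate 1 left out 1 ketone body gene and 1 acyl-CoA synthetase rose. PRKAA2, the catalytic subunit of AMP-activated kinase with the highest count of the list, had 74.6 and 48.3 CPM in knockdown libraries, against 61.3 and 69.6 CPM in control libraries. The corepressor NCOR1 had 38.7 and 38.7 CPM in knockdown libraries, against 31.4 and 28.7 CPM in control libraries (adjusted p = 0.250). PPARA, named after its values had been seen and measured on a low row of a gene with 12 RefSeq mRNA accessions, had 5.69 and 4.02 CPM in knockdown libraries, against 5.37 and 4.39 CPM in control libraries. Among the ketone body genes, BDH2 had groups that did not overlap (log2 fold change 0.53, adjusted p = 0.0841), while those of ACAT2, the cytosolic thiolase, overlapped (−0.12, adjusted p = 0.777). The fatty acid transport proteins SLC27A4 (0.44, adjusted p = 0.114) and SLC27A1 (−0.54, adjusted p = 0.0702) had opposite signs.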

How the data were processed

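RNA of 2 USP22 knockdown and 2 control libraries was sequenced, grouped by sample title. The authors deposited raw counts per RefSeq mRNA accession for each library. They also deposited a log2 fold change, a p-value and a q-value for the contrast of the groups, and the sources used here do not name the tool. As tools, with no roles, HISAT2 2.1.0, HTSeq and bcl2fastq stand in the submitters' processing notes, and hg19 as the build. Per the labels' protocols the libraries were made with the NEBNext Ultra RNA kit, which does not mark strand.

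The whole table (14540 rows) was fitted in edgeR 4.0.16 (R 4.3.3): filterByExpr with a minimum count of 10 kept 12337 transcripts, TMM factors lay between 0.979 and 1.01, and glmQLFit and glmQLFTest had no covariate. P-values were Benjamini-Hochberg adjusted over the 12337 transcripts, and 0.05 was the threshold. The SE is the log2 fold change divided by the square root of F, and 95% intervals use the moderated degrees of freedom. The common biological coefficient of variation was 22.1%. The procedure was tested on simulated data. Of the 26 members that did not pass, 15 had an interval that lay within a 2-fold change.

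Accession counts came from a RefSeq table (GRCh38.p14), which matched 98.5% of rows, and transcript lengths and exon overlaps from GENCODE 29 (95.9% of rows). That build is not the authors', so no coordinates are given for rows. Promoter sequences are from RefSeq (GRCh38.p14) and were found for 32 of the 40 members.

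Members, lists and tests were chosen with earlier results of these data known. Values are given for USP22, every member, and per other list at most 2 genes in each direction that passed with the largest change, or the 2 with the highest count where none did. Alternatives were DESeq2 1.42.0, its size factors, no filter beyond 1 count, rows summed per gene, the replicate number as a block and leaving out each library. For genes outside the members the alternatives were added after seeing the data. Some genes of the lists are not reported here.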

Additional observations from a re-analysis of the deposited data

How the results depend on the processing

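ACOX2, ETFB and PEX14 passed in all 9 alternatives, PEX3 in 8 and ACSL4 in 4. The count of members that fell was 2 with the replicate number as a block and between 0 and 2 when a library was left out. The count of transcripts that rose was 1672 with the block and 685 to 1340 when a library was left out, against 1047. The median of fatty acid activation was −0.078 with rows summed per gene and −0.0048 to 0.18 without a library. The samples share only a replicate number: same-numbered deviations correlated at 0.15, the labels name no shared batch, and there are 2 pairs. With the replicate block 6 members rose and 2 fell, as ACADSB and DECR2 (higher) and ACADVL (lower) also passed. Of the lists with no call, 2 ketone body genes, 2 other acyl-CoA synthetases (1 higher and 1 lower) and 1 regulator passed with the replicate block, BDH2, SLC27A4 and SLC27A1 among them. Of 26 other peroxisomal enzymes 6 rose and 1 fell with the block, and of 12 PPARA targets 4 rose and 4 fell. Calls also grew over the whole table. With the block 1672 of 12337 transcripts rose and 1859 fell, against 1047 and 1257 in the main fit.

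Some log2 fold changes that did not pass changed sign, PEX5 (0.52) and PEX10 (−0.67) among them. ACAA1 was −0.00084 with the block and −0.22 to 0.26 without a library, and ACSL5 was −0.091 with rows summed and −0.064 to 0.54 without a library. The ranges without a library were −0.16 to 0.078 for ACAA2, −0.22 to 0.10 for ACSL3, −0.046 to 0.25 for ECHS1, −2.35 to 0.13 for PEX10, −0.47 to 0.092 for PEX11A, −0.69 to 1.2 for PEX5 and −0.065 to 0.50 for PEX7. For ACAT2 and PRKAA2 they were −0.24 to 0.036 and −0.40 to 0.20. The cause was not tested. Where a library was left out, the lone library of its group is assumed to vary like those of the other group. Little can be read from rows under about 50 counts, such as those of ACSL1, ACSL4, HADHB, PEX5 and PEX10. The SEs of these 5 log2 fold changes ran from 0.58 to 0.84.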
